A study of Mus musculus with 3 samples.

Results

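Adhesion G protein-coupled receptors form a family of cell-surface receptors with long extracellular regions that bind matrix proteins or proteins on neighbouring cells. Most are cut at a site next to the membrane during their synthesis. The stub that remains on the membrane part can act as a tethered agonist, which starts signalling through G proteins when the outer part is pulled away. In the kidney, Adgrf5 and Adgrl4 are known from the endothelium, and mice lacking both have been described to develop thrombotic microangiopathy in their glomeruli.

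The genes of this family were taken by gene symbol, as the Adgr genes and Celsr1, Celsr2 and Celsr3, without the macrophage marker Adgre1. The choice used no measured value. It gave 24 genes of 18194 with a probe set of 1 gene, read by 44 of 45101 probe sets, and 13 of the 24 genes had several probe sets. They cover all 9 subfamilies, which are written here as I (L), II (E), III (A), IV (C), V (D), VI (F), VII (B), VIII (G) and IX (V).

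Glomeruli were isolated from 3 nondiabetic male FVB/NJ mice aged 8 weeks, and the RNA of each mouse was hybridised to 1 Affymetrix whole-genome array. The labels give no treatment or engineered allele for these inbred mice, which were kept on a standard rodent diet. They name the OVE26 line as the diabetic partner of the study, and OVE26 mice were not analysed here. There was thus 1 group (n = 3) and no comparison between groups, and the report concerns levels and the spread between mice. Values are log2 expression values, errors are SD over the 3 mice, and mice carry the replicate number of their sample title.

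A probe set was called above background when it exceeded the 95th percentile of 80 olfactory and vomeronasal receptor probe sets on its array, at 2.58, 2.91 and 2.86 in mice 1, 2 and 3. Markers of the glomerulus were measured on every array, as the tissue label implies. They were all 7 podocyte genes that have a probe set, such as Nphs1 (11.19 ± 0.25) and Podxl (14.54 ± 0.03), all 10 endothelial genes and all 6 mesangial and pericyte genes, such as Pdgfrb (13.27 ± 0.07) and Itga8 (13.38 ± 0.12). All 4 parietal epithelial genes were above background too, with Cldn1 at 8.01 ± 0.20 and Pax8 at 3.59 ± 0.23. Podocyte genes differed between mice as well, with 6 of 7 lowest in mouse 3. Tcf21 of that list was at 12.44, 11.27 and 12.02 in mice 1, 2 and 3, a 2.25-fold range. Other cell types were present too and differed between mice. Every array measured 9 of 10 proximal tubule genes, with 8 of the 9 at their highest in mouse 3, while 4 of 5 macrophage and 4 of 4 lymphocyte and granulocyte genes above background were highest in mouse 1. Intercalated cell genes were above it in all mice for 1 of 4, with Slc4a1 at 3.21 ± 0.26 and Atp6v0d2 below. Adipocyte markers, Adipoq and Cidec among them, were below background in all mice. In such bulk RNA, fewer cells of a type and less RNA per cell cannot be told apart. Probe sets differ in how strongly they bind, so levels of different genes were not ranked.

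Of the 24 genes, 13 (54.2%) were above background in all 3 mice, against 58.3% of all genes. The 13 genes were Adgrl1, Adgrl2, Adgrl3, Adgrl4, Adgre4, Adgre5, Adgra2, Adgra3, Celsr2, Adgrf5, Adgrg1, Adgrg3 and Adgrg6. They came from 6 of the 9 subfamilies. In subfamily I (L) 4 of 4 genes were above background, and in II (E) both genes kept here were (Adgre1, left out of the choice, was not), whereas VII (B) had 0 of 3. Another 3 genes gave mixed calls, and 8 were below background in all mice, with values of 1.66 to 2.71.

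**Figure D1:**
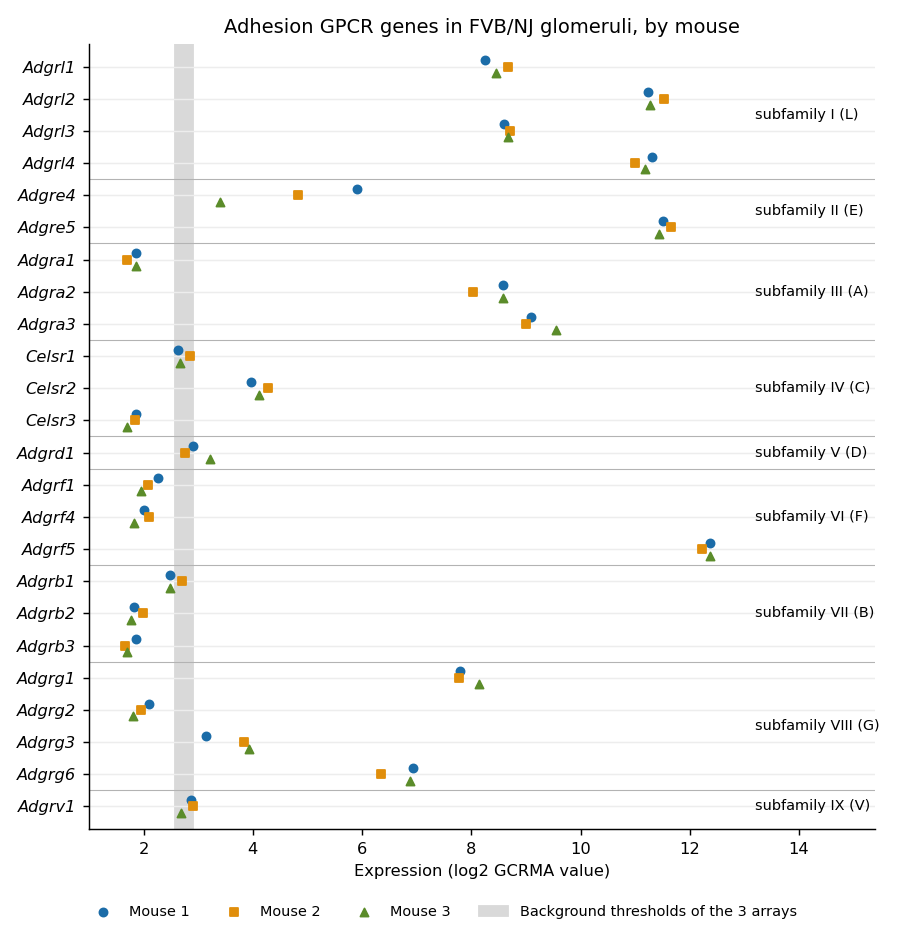
Log2 expression (x axis) of the 24 adhesion receptor genes in each of the 3 mice, grouped by subfamily. The grey band spans the background thresholds of the arrays (2.58 to 2.91), and 13 genes lie beyond their threshold in all 3 mice, with Adgre4 spread most widely.

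The latrophilins of subfamily I (L) bind teneurins and FLRT proteins on neighbouring cells. Adgrl1, first known as a receptor for a spider toxin, was at 8.25, 8.67 and 8.45 in mice 1, 2 and 3 (8.46 ± 0.21). Its other probe set was at 5.51, 5.80 and 5.47. Both were highest in mouse 2.

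Adgrl2, another latrophilin, was at 11.24, 11.53 and 11.27 in mice 1, 2 and 3 (11.35 ± 0.16). A further probe set of it was at 10.58, 10.89 and 10.58, again with mouse 2 highest, and the last was below background in all mice (2.33 to 2.65). In mouse 2, 4 of 5 smooth muscle genes above background were also highest, such as Acta2 (10.54, 10.88 and 10.04) and Myh11 (6.96, 7.33 and 6.69). The same held for 4 of 5 distal nephron genes (loop to collecting duct), such as Umod (12.47, 13.56 and 13.06) and Slc12a1 (10.09, 11.68 and 10.85). The part of these cells in the values of Adgrl1 and Adgrl2 was not tested.

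Adgrl3 was read by 6 probe sets, all above background in every mouse, and they differed in their pattern. The probe set with the highest mean was at 8.61, 8.71 and 8.67 in mice 1, 2 and 3 (8.66 ± 0.05), so the mice nearly coincided. Its name ends in _x_at, a mark of probes that can match other transcripts. The other 5 probe sets, none of which carries such a mark, were all highest in mouse 3. Of these, the one with the highest mean was at 5.87, 5.99 and 6.57 (6.14 ± 0.37), and another at 5.55, 5.30 and 6.08 spanned a 1.72-fold range. The spread of Adgrl3 thus depended on the probe set, with an SD of 0.05 or 0.37.

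Adgrl4, also known as ELTD1, is a receptor of blood vessel endothelium with a role in vessel growth. It was at 11.30, 10.998 and 11.19 in mice 1, 2 and 3 (11.16 ± 0.15), and its other probe set at 10.51, 10.13 and 10.18. Both were highest in mouse 1 and lowest in mouse 2.

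Adgrf5 was the only one of the 3 measured members of subfamily VI (F) that was above background in all mice. It is also known as GPR116 and is expressed in endothelium, and in the lung it limits the pool of surfactant. It was at 12.37, 12.23 and 12.37 in mice 1, 2 and 3 (12.33 ± 0.08), and its other probe set at 11.57, 11.36 and 11.82. The 2 probe sets had their lowest value in mouse 2. Its relatives Adgrf1 (1.95 to 2.26) and Adgrf4 (1.82 to 2.11) were below background in every mouse.

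Endothelial markers also differed between the mice, with 7 of 10 highest in mouse 1 and 5 of 10 lowest in mouse 2. Kdr, a VEGF receptor gene, was at 12.60, 12.47 and 12.39, and Pecam1 at 9.57, 9.20 and 9.04, both lowest in mouse 3. The summed linear level of the list was 37028, 32206 and 32838 in mice 1, 2 and 3. The part of endothelial content in the values of Adgrl4 and Adgrf5 was not tested.

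Promoter windows are shown for Adgrl4 and Adgrf5, the 2 receptors linked to glomerular vessels, and for Adgre4, whose values differed most between mice. Each holds 300 bases, 250 before and 50 after a gene start, from RefSeq on build GRCm38.p6, 5′ to 3′ on the strand of the gene. Capitals mark AGGAAG, or CTTCCT where it lies on the other strand, letters that can be bound by ETS family factors, which act in endothelial and myeloid cells. The windows are chr3:151437632-151437931 on the plus strand for Adgrl4, chr17:43360181-43360480 on the plus strand for the first listed start of Adgrf5, and chr17:55749734-55750033 on the plus strand for Adgre4.
Adgrl4: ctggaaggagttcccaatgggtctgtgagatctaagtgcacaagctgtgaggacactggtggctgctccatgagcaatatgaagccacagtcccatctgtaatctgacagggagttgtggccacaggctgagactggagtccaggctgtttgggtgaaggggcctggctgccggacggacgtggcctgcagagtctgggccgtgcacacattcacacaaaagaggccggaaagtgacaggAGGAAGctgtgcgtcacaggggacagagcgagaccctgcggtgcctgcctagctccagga
Adgrf5: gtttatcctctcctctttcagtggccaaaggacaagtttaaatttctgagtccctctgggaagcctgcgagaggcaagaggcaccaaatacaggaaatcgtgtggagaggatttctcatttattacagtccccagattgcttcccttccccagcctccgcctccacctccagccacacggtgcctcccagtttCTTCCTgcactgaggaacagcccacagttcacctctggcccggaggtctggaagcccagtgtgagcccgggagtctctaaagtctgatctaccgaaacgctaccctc
Adgre4: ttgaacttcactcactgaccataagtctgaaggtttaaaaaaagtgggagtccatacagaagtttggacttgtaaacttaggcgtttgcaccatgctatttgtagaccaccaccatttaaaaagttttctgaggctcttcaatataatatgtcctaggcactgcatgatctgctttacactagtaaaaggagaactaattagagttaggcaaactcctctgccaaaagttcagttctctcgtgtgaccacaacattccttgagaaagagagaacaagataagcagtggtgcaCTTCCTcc

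Each of these windows holds the letters AGGAAG 1 time, counting both strands. Over all promoter windows of that length 35.4% hold them, and 9 of the 23 windows of this family do. The second listed start of Adgrf5 has none. A match of letters is not a bound site.

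Subfamily II (E) contains receptors of leukocytes. Adgre4, known in the mouse as a receptor of myeloid cells, was at 5.91, 4.82 and 3.39 in mice 1, 2 and 3 (4.71 ± 1.26), a 5.73-fold range. It was the only one of the 13 genes with at least a 2-fold range, which 5.94% of all genes above background had. Its other probe set was below background in all mice (1.52 to 1.79), so the range rests on 1 probe set, and with the mean of both the gene was no longer above background in all mice. Without mouse 3 its SD was 0.771. Adgre5, known as CD97, binds the complement regulator CD55. It was at 11.50, 11.65 and 11.44 (11.53 ± 0.11), and its mice lay within a 1.16-fold range.

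Of 9 leukocyte genes above background in all mice, 5 gave the same order of mice as Adgre4. In mice 1, 2 and 3 Tyrobp, which encodes a signalling adaptor, had values of 6.78, 4.79 and 3.36, the lysozyme gene Lyz2 of 9.47, 8.22 and 7.02, and the pan-leukocyte gene Ptprc of 7.43, 6.58 and 5.13. The macrophage list, with 5 of 8 genes above background in all mice, had a summed linear level of 1148, 671 and 394. Csf1r, a receptor gene of macrophages, departed from this order, at 8.01, 8.23 and 7.69. Cd74 (4.59, 3.88 and 4.43), S100a9 (4.94, 3.31 and 3.46) and Itgal (4.79, 3.68 and 3.98) departed too, each lowest in mouse 2. The share of all genes in the order of Adgre4 was not computed.

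Defining markers were partly missing. Cd68 and Itgam of the macrophage list and Cd3e, Cd79a and Nkg7 of the lymphocyte and granulocyte list were below background in all mice, and Adgre1 was above it in mouse 1 only (2.69, 2.23 and 2.003). RNA quality, read from the 3′ minus 5′ difference of the actin controls, also varied, at 1.49, 1.81 and 2.05 in mice 1, 2 and 3. That of the Gapdh controls was 0.48, 1.08 and 0.92, with mouse 2 highest. In mouse 1, 8 of 9 proximal tubule genes were lowest. The part of leukocytes, tubule or RNA quality in the range of Adgre4 was not tested.

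**Figure D2:**
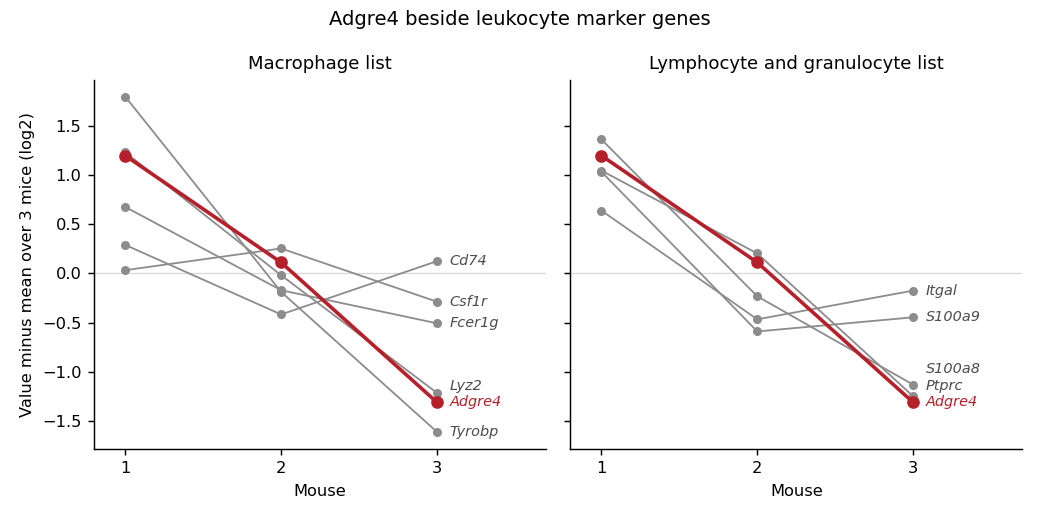
Adgre4 (red) and the leukocyte genes above background in all mice (grey), each as the log2 value minus its own mean over the 3 mice (y axis) for each mouse (x axis). Lines join the values of 1 gene and imply no order of mice. All 4 lymphocyte and granulocyte genes were highest in mouse 1, as Adgre4 was, while Csf1r was highest in mouse 2.

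Of subfamily III (A), Adgra2 and Adgra3 were above background. Adgra2, known as GPR124, acts with the membrane protein RECK as a co-receptor for WNT7 ligands in the vessels of the brain. It was at 8.58, 8.03 and 8.57 in mice 1, 2 and 3 (8.39 ± 0.31), with mouse 2 lowest and the other mice nearly equal. Adgra3 was at 9.09, 9.003 and 9.55 (9.21 ± 0.30), with mouse 3 highest, and its other 2 probe sets were below background in all mice. Adgra1 was below background with all 3 of its probe sets.

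Subfamily IV (C) comprises the Celsr cadherins, which orient cells in the plane of an epithelium. Celsr2 was at 3.96, 4.27 and 4.12 in mice 1, 2 and 3 (4.12 ± 0.15), and its other probe set was below background in all mice (2.06 to 2.75). Celsr1 was above background in mouse 1 only (2.63, 2.85 and 2.66), where the threshold was lowest. Celsr3 was below it in all mice (1.70 to 1.86).

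In subfamily VIII (G), 3 of 4 measured genes were above background in all mice. Adgrg1, known as GPR56, binds type III collagen and takes part in the development of the brain cortex. It was at 7.80, 7.78 and 8.14 in mice 1, 2 and 3 (7.91 ± 0.20), and its other probe set at 7.61, 7.66 and 8.11. The names of these probe sets end in _a_at and _x_at, and _x_at is the mark described for Adgrl3. Both were highest in mouse 3, where 8 of 9 proximal tubule genes were also highest, such as Slc34a1 (4.44, 5.35 and 7.41) and Lrp2 (5.04, 5.43 and 7.81). The part of tubule in this was not tested.

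Adgrg3, known as GPR97 and expressed in granulocytes, was at 3.14, 3.84 and 3.94 (3.64 ± 0.43), a 1.73-fold range with mouse 1 lowest. Without mouse 1 its SD was 0.0668. The granulocyte genes S100a8 (6.79, 5.19 and 4.28) and S100a9 (4.94, 3.31 and 3.46) were instead highest in mouse 1. Adgrg6, known as GPR126, is needed for Schwann cells to form myelin. It was at 6.93, 6.35 and 6.88 (6.72 ± 0.32), and its other probe set at 5.56, 5.28 and 5.17. Both were highest in mouse 1 and differed in which mouse was lowest.

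Of 5 Schwann cell and nerve genes, only Mbp exceeded the threshold in every mouse, at 3.93, 3.80 and 3.50. Sox10 was above it in 2 mice and S100b in none. Adgrg2, known from the duct system of the testis, was below background (1.47 to 2.10 over its 2 probe sets).

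The other subfamilies had no gene above background in all mice. Adgrb1, Adgrb2 and Adgrb3, known from the brain, were below it throughout (1.66 to 2.71). Adgrd1 was at 2.91, 2.75 and 3.21 in mice 1, 2 and 3, above the threshold in 2 of them. Adgrv1, whose loss causes hearing impairment, was at 2.87, 2.91 and 2.68 and above it in mouse 1 only. GCRMA values this close to background say little on whether these genes were expressed.

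Adgrf5, Adgrg1, Adgrg6, Adgrl1, Adgrl2, Adgrl3 and Adgrl4 each had at least 2 probe sets above background in all mice. For 6 of the 7 genes, all but Adgrl3, these probe sets gave the same mouse as highest. For 2 of the 7, Adgrf5 and Adgrl4, they were also lowest in the same mouse. In Adgrf5 the match on the highest mouse rests on a near tie. Its probe set with the highest mean was at 12.3731 in mouse 3 and 12.3727 in mouse 1. The matching shares over all genes with several probe sets were not computed, so these counts show nothing particular to the family.

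**Figure D3:**
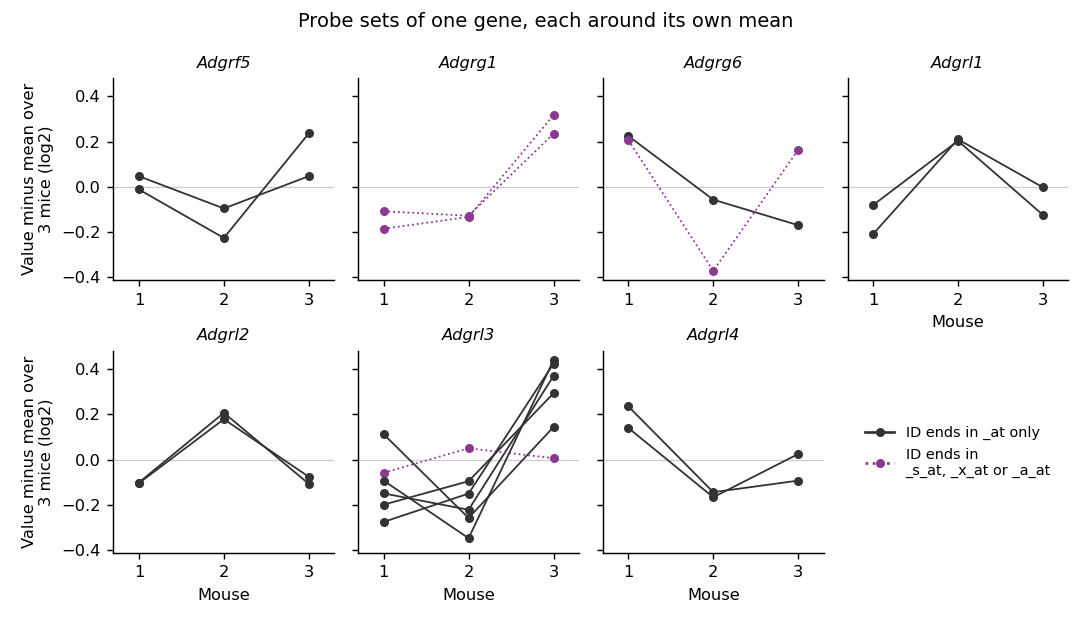
Probe sets above background in all mice for the 7 genes that had several, each as the log2 value minus its own mean over the 3 mice (y axis) for each mouse (x axis). Lines join the values of 1 probe set and imply no order of mice, and dotted lines mark names that end in _s_at, _x_at or _a_at. In Adgrl3 the dotted probe set is nearly flat, and the other 5 are highest in mouse 3.

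The spread between mice was next set beside that of all genes. The SD of the 13 genes ran from 0.05 (Adgrl3) to 1.26 (Adgre4) with a median of 0.204, beside a median of 0.157 over the 10610 genes above background. Without mouse 2 it was 0.0965 over the 14 genes then above background, beside 0.135 over all genes, so the value rests in part on that mouse. Of the 13 genes 6 had an SD under the median of all genes, which is not matched for level. Set against the SD that limma fitted at its own level, 10 of the 13 genes lay above it, all but Adgrf5, Adgrl3 and Celsr2, beside 47.2% of all genes above background. Adgre5 lay only just above, at 0.1082 beside a fitted 0.1071. The count was not repeated with other probe set rules or with a mouse left out. It is a description, with no test of the family.

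By limma, 0 of the 13 genes had excess variance between mice at a Benjamini-Hochberg adjusted p under 0.05, and neither had any of the 10610 genes (0%). At an unadjusted p under 0.05, the limma test gave 1 of the 13 genes and 493 of all genes (4.65%). That gene was Adgre4, with an unadjusted p of 0.0109 and an adjusted p of 0.770 in limma, and its SD of 1.26 compares with a fitted 0.243 at its level. The number of arrays limits this test so strongly that a count of 0 does not show the spread to be usual. Apart from Adgre4, the widest range was that of Adgrg3, so for 12 of the 13 genes the mice lay within 1.73-fold of each other.

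**Figure D4:**
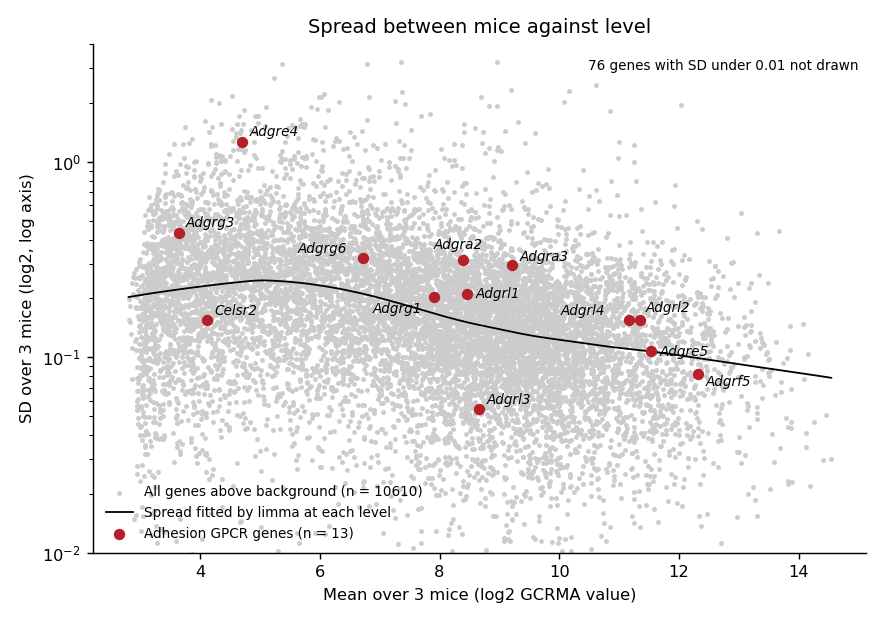
SD over the 3 mice (y axis, log scale) against mean log2 expression (x axis) for the 10610 genes above background (grey; the 76 with an SD under 0.01 are not drawn) and the 13 adhesion receptor genes (red), with the spread limma fitted at each level (line). Adgre4 lies at 1.26, and Adgrl3, by the probe set that stands for it, at 0.05.

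No single mouse held most of the highest values. Of the 13 genes 4 were highest in mouse 1, 5 in mouse 2 and 4 in mouse 3, while 34.8%, 28.6% and 36.6% of all genes above background were. Mice 1 and 3 nearly tied for Adgra2 (8.5761 and 8.5742) and Adgrf5 (12.3727 and 12.3731). Adgrl3 counts for mouse 2 by its _x_at probe set, while its other 5 probe sets were highest in mouse 3. The lowest value lay in mouse 1 for 5 genes, in mouse 2 for 6 and in mouse 3 for 2, beside 33.0%, 35.1% and 31.9% of all genes above background.

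Binding partners known for these receptors were measured alongside them. Their counts above background stand beside 58.3% of all genes. Among the latrophilin ligands, 6 of the 9 measured genes exceeded background on every array. Flrt1 was at 8.35, 8.02 and 8.46 in mice 1, 2 and 3, and Flrt2 at 9.98, 9.74 and 9.65. Flrt3, whose protein also binds latrophilins, was at 5.54, 3.49 and 3.90, a 4.16-fold range, and had an unadjusted p of 0.0153 and an adjusted p of 0.835 in limma. The teneurin genes Tenm2 and Tenm3 were above background, and Tenm1 and Tenm4 were not.

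Partners of the Celsr cadherins in planar cell polarity were above background for 8 of 9 genes. Vangl1 was at 7.86, 7.74 and 7.995 and Vangl2 at 8.25, 8.51 and 8.23 in mice 1, 2 and 3. Prickle2, a cytoplasmic member of the same pathway, was at 10.48, 10.18 and 9.69, with an unadjusted p of 0.0392 and an adjusted p of 0.972 in limma.

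For Adgra2, the co-receptor gene Reck was at 10.57, 10.43 and 10.47, while the ligand genes Wnt7a (2.36, 2.52 and 2.81) and Wnt7b (2.30, 2.41 and 2.43) were below background in all mice. For Adgre5, the ligand gene Cd55 was at 10.09, 9.82 and 10.14 and Thy1 was below background (1.71 to 1.97). Of 8 ligand and effector genes of the Adgrb receptors 3 were above background. C1ql1 (1.86 to 2.09), C1ql2 (1.97 to 2.13) and C1ql3 (2.21 to 2.45), which encode secreted ligands of Adgrb3, were not among them.

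All 6 ligand genes listed for Adgrg1 and Adgrg6 were above background. Col3a1, whose collagen binds Adgrg1, was at 4.998, 5.75 and 5.60 in mice 1, 2 and 3, and Tgm2, a transglutaminase that also binds it, at 10.38, 9.87 and 10.28. Col4a1, a type IV collagen chain of basement membranes, was at 12.30, 12.60 and 12.26. Ptk7 (6.58, 6.86 and 6.59) and Plxdc2 (10.03, 10.06 and 10.08), whose proteins bind Adgrd1, were above background too.

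All 8 genes of G protein alpha subunits, which couple receptors to their effectors, were above background. Gna11 was at 9.75, 9.53 and 9.98, Gna12 at 9.28, 9.17 and 9.23 and Gna13 at 9.97, 9.94 and 9.96 in mice 1, 2 and 3. The median SD of this list was 0.0697, beside 0.157 over all genes above background, which is not matched for level. Their means ran from 9.23 (Gna12) to 13.71 (Gnas). The SD fitted by limma was lower for bright genes, at 0.0989 for Adgrf5 (12.33) and 0.243 for Adgre4 (4.71). None of the 8 had a 2-fold range, which 5.94% of all genes above background had. Over all partner lists, Flrt3 was the only gene above background with a 2-fold range, beside the same 5.94% of all genes. No gene of the lists passed the adjusted limma test, and neither did any of all genes.

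**Figure D5:**
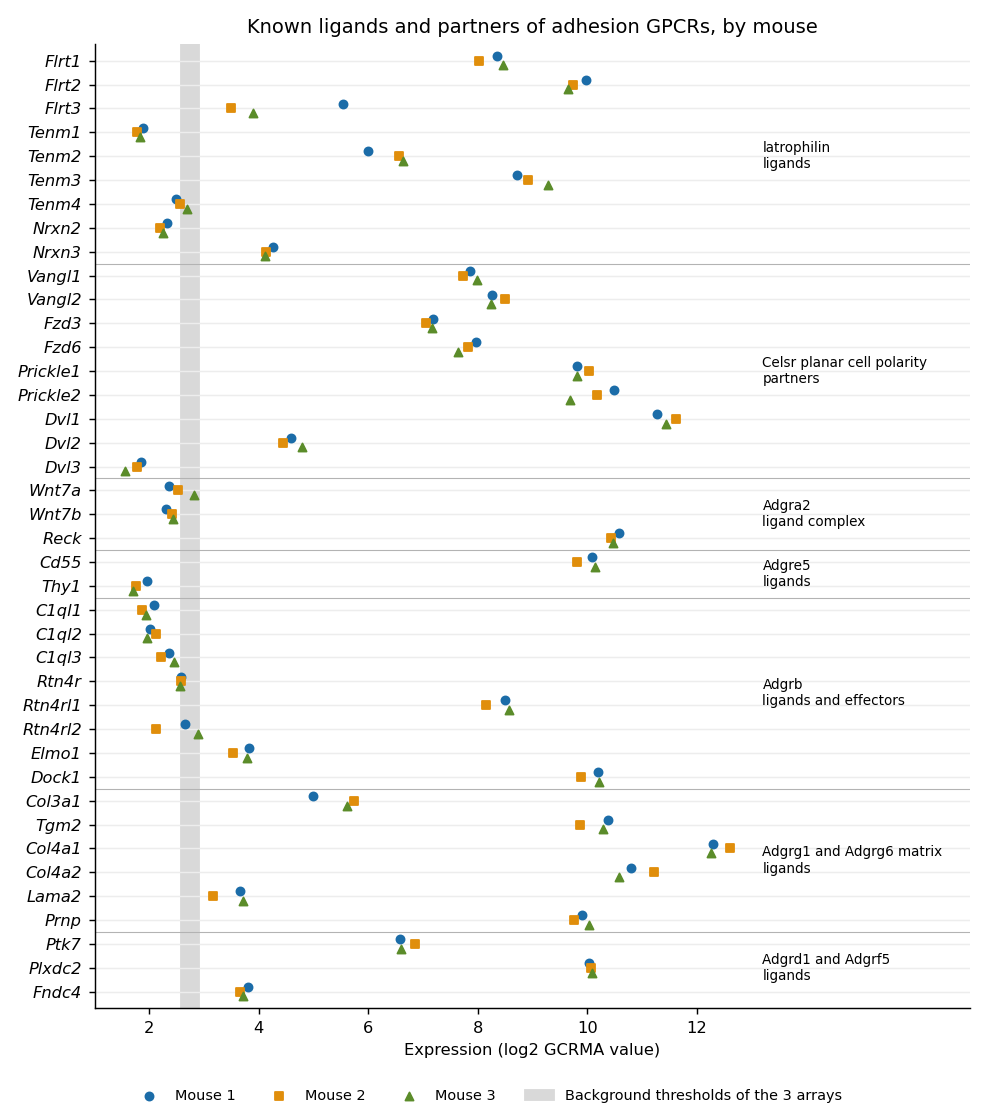
Log2 expression (x axis) of the ligand and partner genes with a probe set in each of the 3 mice, grouped by the receptors they belong to, with the G protein subunits left out. The grey band spans the background thresholds (2.58 to 2.91). Flrt3 has the widest range, and Wnt7a, Wnt7b, Thy1 and the C1ql genes lie at or under the band.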

How the data were processed

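The authors deposited 1 table of log2 expression values with 1 column for each of 3 arrays. GCRMA, named in the submitters' processing notes, produced 1 value per probe set. It corrects background by probe sequence and brings the arrays to a shared distribution. The GCRMA version and the arrays normalised together are not given in the sources used here. That the scale is log2 follows from the range of the values and is not stated in the labels. No further normalisation was applied, and 0 columns of per-sample values were left unused. GCRMA gives many dim probe sets nearly equal values, which lowers their SD.

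Gene names came from the platform annotation, and a probe set of several genes stood for none. All 24 family members matched the reference gene table. The probe set with the highest mean stood for a gene, and genes above background on all 3 arrays were tested. limma 3.58.1 in R 4.3.3 tested each gene for excess variance between mice. It set the variance of each gene against the scaled F distribution fitted over all genes tested (trend on level, robust, one-sided, Benjamini-Hochberg at 0.05). The test was also run on simulated data whose spread was set by hand and not fitted to these arrays. That run does not measure the power of the test here. Each array is a separate mouse, per the labels, so the SD covers the mouse, its isolate and its array together. Every member above background in all mice is given with its values, and of each partner or marker list the first 2 members with a probe set. Further genes were chosen after their values were seen. The family members and the gene lists were chosen with earlier results of these data known. Alternatives were other thresholds, probe set rules, normalisations, filters and fits, and leaving out each mouse.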

Additional observations from a re-analysis of the deposited data

How the results depend on the processing

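No paired analysis was possible because the labels give a single group. The count of genes above background in all mice was 13 of 24 and ranged from 10 (fixed threshold of 4, and without probe sets whose names end in _s_at, _x_at or _a_at, which left 21 genes) to 17 (90th percentile). Adgra2, Adgre5 and Adgrg1 have only probe sets of such names and dropped out there. The count with a 2-fold range was 1, and it was 0 with the 99th percentile threshold, 0 with the fixed threshold of 4 and 0 with the mean of all probe sets, since Adgre4 was then not above background in all mice. It was 1 without each mouse in turn. The median SD of 0.204 lay between 0.0965 and 0.217 when 1 mouse was left out, and between 0.151 and 0.206 under the other alternatives. Without mouse 2 the SD of Adgra2, Adgre5, Adgrf5, Adgrg6, Adgrl2 and Adgrl4 changed by over 1.5 times, as did those of Adgrg3 (0.0668) and Adgrl3 (0.0309) without mouse 1, and of Adgre4 (0.771), Adgra3 (0.0590) and Adgrg1 (0.0137) without mouse 3. The count of genes with excess variance was 0 under every alternative run. It was also 0 over all genes each time, so its constancy says little about the family. The adjusted p of Adgre4 in limma ran from 0.552 to 0.956 where it was tested. It was not tested with the 99th percentile threshold, the fixed threshold of 4 or the mean of all probe sets. The mean of all probe sets changed the SD of Adgra3 (0.130), Adgre4 (0.697), Adgrf5 (0.152), Adgrl3 (0.244) and Celsr2 (0.252) by over 1.5 times. So did leaving out probe sets named _s_at, _x_at or _a_at for Adgrg6 (0.203) and Adgrl3 (0.373). Of 88 SDs of single genes under alternatives, 70 stayed within 1.5 times. Signal over background limits Adgre4, Adgrg3, Celsr2 and the genes with mixed calls.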

Other observations

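Several genes of the family lie side by side, by the order of protein-coding genes in the reference table (GRCm38.p6). Adgrl2 and Adgrl4 are next to each other on chromosome 3, Adgre5 and Adgrl1 on chromosome 8, and Adgrg1 and Adgrg3 on chromosome 8. In each of these 3 pairs both genes were above background in all mice. Of all single genes 58.3% were. The share over all neighbouring pairs was not computed, so the count shows nothing particular to the family. Adgrf1 and Adgrf5, neighbours on chromosome 17, differed, with Adgrf1 at 2.26, 2.08 and 1.95 in mice 1, 2 and 3 and Adgrf5 at 12.37, 12.23 and 12.37. Adgrl2 was highest and Adgrl4 lowest in mouse 2.

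Promoter windows of 300 bases were found for 19 of the 24 genes. For 11 genes above background in all mice, the first listed window held 2 to 40 CpG dinucleotides with a median of 8.0, and for the 8 other genes 2 to 45 with a median of 16.5. Over all windows the median was 7.0. Adgre4 had 2, Adgrl4 and Adgrf5 had 8 each, and Celsr2 and Adgrl3 had 40 each. These are counts of letters, with no measure of methylation.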
